A study of Mus musculus with 3 samples.

Results

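The mitotic cells of the developing mouse urogenital sinus (UGS) and prostate were described in single-cell RNA sequencing data, in the epithelium and in the stroma apart. A cell was taken as mitotic when it held at least 1 transcript of at least 4 of 9 genes, *Cenpf*, *Cenpa*, *Cenpe*, *Tpx2*, *Nusap1*, *Prc1*, *Ube2c*, *Ccna2* and *Cdc20*, and as non-mitotic when it held none of the 9. By this rule 473 of 14476 cells were mitotic. A cell was of epithelial kind when its summed deposited values of *Cdh1* and *Cldn4* exceeded those of *Col1a2* and *Col3a1*, and of stromal kind when the reverse held. Of the mitotic cells, 229 were of epithelial kind, 223 of stromal kind, and 21 had equal sums and were of neither kind. They were compared with 3148 non-mitotic epithelial and 7489 non-mitotic stromal cells. The cells were thus chosen by the measured values of these 13 genes, whose levels are given as a description.

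The data hold 1 library each of E18.5 male UGS, P14 prostate and P35 prostate, all labelled normal and dissociated to single cells with collagenase and TrypLE. The labels give no genotype for these mice, and they name v3 chemistry of the 10x Chromium kit where the study's methods name v2. Cell barcodes end in 1, 2 or 3, and the labels do not say which ending belongs to which tissue. The endings are called barcode sets 1, 2 and 3 here, and ages were not compared. With 1 library per tissue no p-value was computed. Every interval is a 95% interval for counting error only. Spread between animals, and for levels and ratios also spread between cells, is not covered.

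Entry into mitosis is driven by the kinase CDK1 with its cyclin partners. Kinetochores then attach chromosomes to spindle microtubules, the spindle checkpoint holds the cell until all are attached, and the anaphase-promoting complex with CDC20 and UBE2C releases the sister chromatids before cytokinesis. Many of these transcripts already accumulate in G2, so cells found by them can be in G2 or in M. In the growing prostate, epithelial buds and the mesenchyme around them both proliferate.

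Many G2/M promoters are known to carry a cell cycle genes homology region, with the letters TTTGAA or TTTAAA, downstream of CCAAT boxes. Of the 8 promoter windows that RefSeq (GRCm38.p6) gives for 7 of the 9 rule genes, 4 hold both motifs within the last 100 bases before the start, and these are shown first, followed by *Cdk1* and *Plk1*, kinases of mitotic entry that the rule did not use. Each is read 5′ to 3′ on the gene's strand, with the 2 motifs in capitals in whichever strand orientation they occur (TTCAAA and ATTGG are TTTGAA and CCAAT on the other strand).
Cdc20, chr4:118437344-118437443, minus strand: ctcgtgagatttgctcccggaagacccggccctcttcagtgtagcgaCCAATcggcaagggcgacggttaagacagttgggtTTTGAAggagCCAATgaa
Prc1, chr7:80294376-80294475, plus strand: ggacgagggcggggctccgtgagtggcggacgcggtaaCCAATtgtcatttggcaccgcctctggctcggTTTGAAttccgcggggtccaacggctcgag
Ube2c, chr2:164769829-164769928, plus strand: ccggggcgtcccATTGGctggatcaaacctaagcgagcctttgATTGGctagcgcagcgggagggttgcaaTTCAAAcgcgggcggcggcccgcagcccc
Cenpa, chr5:30666786-30666885, plus strand: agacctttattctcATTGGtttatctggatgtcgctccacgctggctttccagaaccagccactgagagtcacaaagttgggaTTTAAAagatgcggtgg
Cdk1, chr10:69352913-69353012, minus strand: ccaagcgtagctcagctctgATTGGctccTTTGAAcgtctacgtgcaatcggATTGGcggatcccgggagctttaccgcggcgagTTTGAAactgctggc
Plk1, chr7:122159335-122159434, plus strand: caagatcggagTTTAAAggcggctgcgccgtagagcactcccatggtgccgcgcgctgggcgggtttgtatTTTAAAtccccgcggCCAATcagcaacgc
Over whole windows of 300 bases, searched on both strands, 7 of 8 windows of the rule genes and 42 of 72 windows (58.3%) of 67 other mitosis genes held both motifs. Among all 32851 windows of the table the share was 10.7%, among the 9359 windows of genes in the data 7.96%, among 38 windows of S-phase genes 13.2%, and none of 41 ribosomal protein windows held both. The S-phase windows held CCAAT often (65.8%) and TTTGAA or TTTAAA in 21.1%, against 70.8% and 65.3% for the mitosis genes. A match of these letters is a description of the window and does not show binding.

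Sets 1, 2 and 3 held 766, 5350 and 8360 cells with 20511786, 15929745 and 27387140 UMIs (unique molecular identifiers, each standing for 1 captured transcript), and their median UMIs per cell were 19357, 1738 and 1801. The table's rows carry 49.4% to 52.7% of each set's UMIs, so many genes are not analysed here, and 74 of the 141 genes on the mitosis lists have a row. Levels are given as UMIs per 1000000 UMIs (CPM) over the summed cells of a group. The kinds were checked on markers the rule did not use. At least 2 of 23 further epithelial markers were found in 24 of 24, 58 of 58 and 147 of 147 mitotic epithelial cells of sets 1 to 3, and at least 2 of 20 fibroblast markers in 118 of 121, 57 of 57 and 45 of 45 mitotic stromal cells. Markers of the opposite kind were also widespread by this measure. At least 2 fibroblast markers were found in 18 of 24, 50 of 58 and 84 of 147 mitotic epithelial cells, and at least 2 epithelial markers in 102 of 121, 16 of 57 and 14 of 45 mitotic stromal cells. In summed level the kinds were further apart. The epithelial markers stood at 5952, 4935 and 4807 CPM in mitotic epithelial and 312, 1431 and 1333 CPM in mitotic stromal cells, and the fibroblast markers at 302, 1149 and 655 CPM and 8535, 5382 and 6285 CPM. Cells with a UMI of the other kind's genes made up 37.5%, 55.2% and 16.3% of mitotic epithelial cells and 20.4%, 23.6% and 11.04% of non-mitotic ones, and 12.4%, 15.8% and 15.6% against 3.28%, 9.96% and 4.47% in stroma. These shares count detection, and mitotic cells held more UMIs. By level, *Col1a2* and *Col3a1* in mitotic over non-mitotic epithelium had log2 ratios of -2.62 and -2.35 in set 1. They were 0.59 and 0.08 in set 2 and -0.40 and 0.10 in set 3. In stroma *Cdh1* and *Cldn4* had 2.88 and 3.96, 1.34 and 0.07, and 0.96 and 0.005. These genes assigned the kind, so this is a description. Whether cells with a UMI of the other kind's genes were doublets or held free RNA was not tested. 1 mitotic cell had a barcode that is also found under another ending.

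The share of cells called mitotic was highest in set 1 in both kinds, and the kinds were ordered differently between sets. Among epithelial cells it was 24 of 154 (15.6%, 10.3 to 22.3) in set 1, 58 of 1347 (4.31%, 3.29 to 5.53) in set 2 and 147 of 2571 (5.72%, 4.85 to 6.69) in set 3. Among stromal cells it was 121 of 535 (22.6%, 19.1 to 26.4), 57 of 3619 (1.58%, 1.20 to 2.04) and 45 of 4509 (0.998%, 0.729 to 1.33). The epithelial share was thus above the stromal one in sets 2 and 3, with intervals that do not meet, and below it in set 1, with intervals that overlap. A cell is called only if its transcripts are captured, and depth differed between kinds and sets. When every cell was thinned to 3000 UMIs and shallower cells were left out, the shares were 6 of 139 (4.32%), 9 of 815 (1.10%) and 22 of 1560 (1.41%) in epithelium and 37 of 475 (7.79%), 12 of 530 (2.26%) and 24 of 431 (5.57%) in stroma, so the order of the kinds turned in sets 2 and 3, with intervals that overlap in set 2 (0.506 to 2.09 and 1.18 to 3.92) and not in set 3 (0.886 to 2.13 and 3.60 to 8.17). The kind was also reassigned on the thinned counts, so these are not the same cells at lower depth. Cells of stromal kind in sets 2 and 3 then numbered only 530 and 431, against 3619 and 4509 before. At 900 UMIs most cells were kept, but cells of neither kind rose to 199, 964 and 2152, from 77, 384 and 1280. Then 1 of 113, 0 of 1005 and 2 of 1886 epithelial and 9 of 447, 6 of 3039 and 6 of 3629 stromal cells passed. Of the cells of neither kind 5, 1 and 4 passed. The 0 of 1005 allows a share of up to 0.299%, taken as 3 cells of 1005. The summed level of the 9 genes over all cells of a kind uses no threshold per cell. It was 248, 152 and 142 CPM in epithelium and 621, 163 and 118 CPM in stroma, a log2 ratio of epithelium over stroma of -1.32 (-1.40 to -1.25), -0.10 (-0.22 to 0.01) and 0.26 (0.15 to 0.37). On that measure stroma was higher in set 1 and the kinds could not be told apart in set 2. Epithelium was slightly higher in set 3. These intervals treat each UMI as independent, though few cells held many of the UMIs. In epithelium of set 1, 24 mitotic cells held 1655 of 1800 UMIs, and in stroma of set 3, 45 held 553 of 980. Spread between cells is not covered, so the small difference in set 3 does not settle an order. *Mki67*, a chromosome periphery protein and proliferation marker outside the rule, gave -1.46, -0.21 (-0.51 to 0.09) and 0.27 (-0.03 to 0.57). The S-phase genes *Clspn*, *Rrm1* and *Tyms*, summed, gave -1.05 (-1.17 to -0.93), 0.25 (0.07 to 0.44) and 0.43 (0.25 to 0.60). In that sum epithelium was above stroma in set 2 as well, with the same limit on the intervals.

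**Figure D1:**
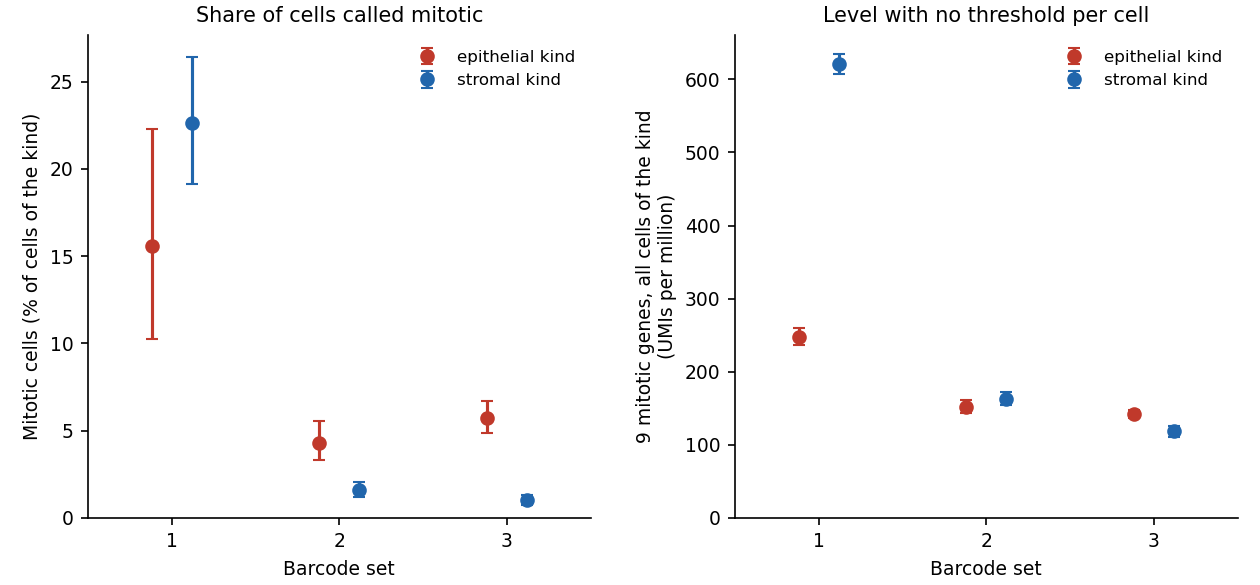
Left, the share of cells of each kind called mitotic (percent) in barcode sets 1 to 3 with exact 95% binomial intervals. Right, the summed level of the 9 rule genes over all cells of the kind (CPM) with exact Poisson intervals. Epithelial shares of 4.31% and 5.72% in sets 2 and 3 stand above the stromal 1.58% and 0.998%, while the levels on the right differ far less there.

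Mitotic cells held more UMIs than non-mitotic cells of the same kind in every set. The median was 56009.5, 11395 and 13824 UMIs in mitotic epithelial cells against 25662.5, 3295 and 3377 in non-mitotic ones, 2.18, 3.46 and 4.09-fold higher. In stroma it was 34559, 2948 and 3361 against 14128, 1416 and 1483, 2.45, 2.08 and 2.27-fold higher. Cells with 1 to 3 of the 9 genes lay between, with medians of 50425, 6766 and 8571 in epithelium and 18172, 2284 and 1933 in stroma. Deep cells pass the rule more readily, and when the rule was applied to cells thinned to 3000 UMIs the log2 ratio of their full UMI totals became -0.53, 0.09 and 0.07 in epithelium and 0.79, -0.12 and -0.02 in stroma, against 1.13, 1.79 and 2.03 and 1.29, 1.06 and 1.18 before. These ratios rest on 6, 9 and 22 mitotic epithelial and 37, 12 and 24 mitotic stromal cells. They leave out every cell below 3000 UMIs, and cells that lost rule genes by thinning can count as non-mitotic. How far depth sets the difference was not tested. RNA content and capture cannot be told apart here. At a fixed 900 UMIs per cell, mitotic cells showed a median of 333.5, 310.5 and 297 genes in epithelium against 318, 303 and 284, and 341, 340 and 334 in stroma against 339, 323 and 293.

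**Figure D2:**
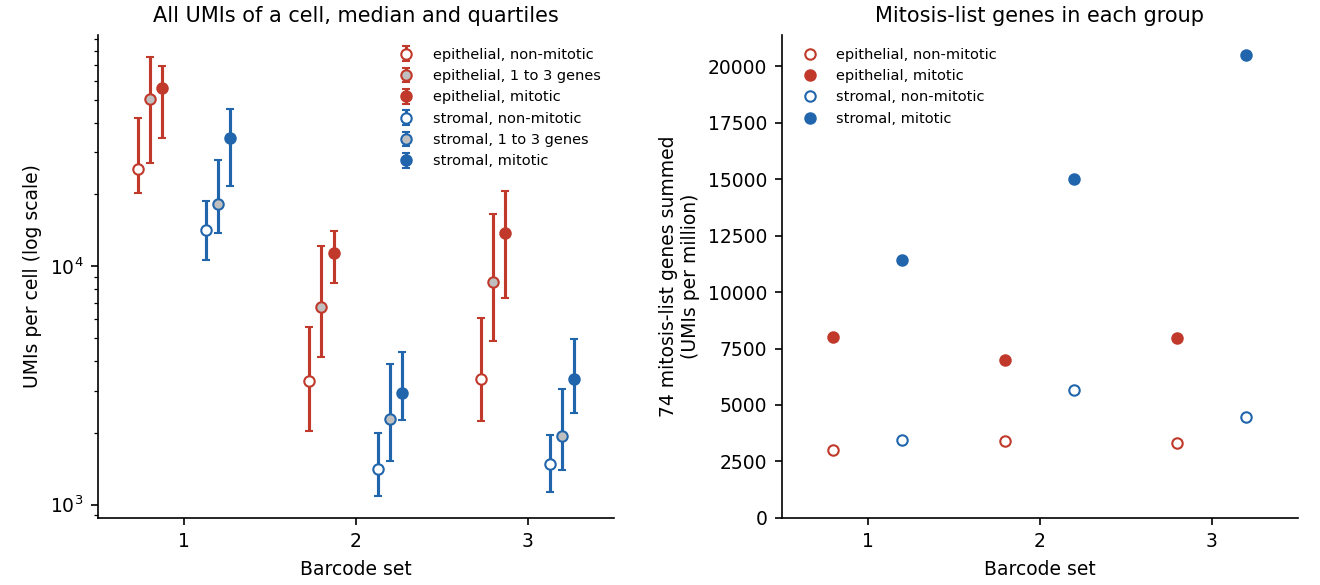
Left, UMIs per cell (log scale) as the median with quartiles for cells with 0, 1 to 3 and at least 4 of the 9 rule genes. Right, the 74 genes of the mitosis lists summed (CPM), with no interval drawn. Mitotic cells (filled) sit above non-mitotic cells (open) of the same kind in every set in both panels, and stromal mitotic cells reach 20525 CPM in set 3.

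The 9 rule genes summed to 1227, 813 and 811 CPM in mitotic epithelial cells and 1576, 1715 and 2925 CPM in mitotic stromal cells, and are at 0 in non-mitotic cells by construction. A mitotic cell held a median of 33, 7.5 and 9 of their UMIs in epithelium and 39, 6 and 9 in stroma, so in sets 2 and 3 many calls rest on few molecules. *Ube2c*, the ubiquitin-conjugating enzyme of the anaphase-promoting complex, was found in 23 of 24, 54 of 58 and 129 of 147 mitotic epithelial cells and in 109 of 121, 47 of 57 and 37 of 45 stromal ones. *Nusap1*, which bundles spindle microtubules, was found in 15 of 24, 19 of 58 and 80 of 147 and in 86 of 121, 18 of 57 and 16 of 45. The cells just outside and just inside the rule are described by the same 9 genes that chose them, so these levels are no test of the rule. In set 1, 10 epithelial cells with 3 of the genes held 66.0 CPM and 2 cells with 4, with 11 UMIs in all, held 68.6 CPM, and in stroma 20 cells held 211 and 14 held 204 CPM. In set 2 the values with 3 and with 4 genes were 417 and 545 CPM in epithelium (45 and 25 cells) and 895 and 1458 CPM in stroma (52 and 34 cells). In set 3 they were 313 and 489 CPM in epithelium (45 and 51 cells) and 893 and 2208 CPM in stroma (21 and 12 cells).

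Most genes of mitosis outside the rule that could be counted were higher in mitotic epithelial cells. The lists held 74 such genes with a row in the table, of which 62, 42 and 63 had at least 20 UMIs over both groups of sets 1, 2 and 3. A gene was called at a CPM ratio of at least 2-fold, a size rule and not a test. Of the genes counted, 49 of 62, 26 of 42 and 49 of 63 were at least 2-fold higher in mitotic epithelial cells and none were 2-fold lower, where 9.14%, 4.69% and 5.13% of all genes counted were higher and 8.93%, 2.4% and 3.79% lower. The median log2 ratio was 3.05, 2.07 and 3.03, against 0.05, 0.05 and 0.06 over all genes. Where the group with the lower rate held 0 to 2 UMIs of a gene, its sum was set to 3 UMIs for the ratio, and a called gene had at least 3 UMIs in the higher group. These genes are expressed together with those of the rule, so this describes the cells and is not independent of how they were chosen. The minimum of 20 UMIs sums both groups, so a gene can be counted through the mitotic cells alone. In set 1 *Bub1* was counted with 39 UMIs in mitotic cells and 0 in the others. The same holds for the other lists and for stroma below. With a minimum of 1 UMI, 60, 53 and 60 of the 74 were higher, beside 9.69%, 5.74% and 6.03% of all genes. Compared with non-mitotic cells of like depth (UMI totals between the 10th and 90th percentile of the mitotic cells), 48 of 60, 20 of 36 and 47 of 62 were higher, beside 9.84%, 4.17% and 4.17% of all genes in that comparison. In set 2 fewer than most were higher with at least 50 UMIs, 11 of 25 (2.13% of all genes), and thinned to 3000 UMIs, 7 of 24 (5.77%). Most were higher in sets 1 and 3 in both choices. At 900 UMIs, with 1 and 2 mitotic cells left in sets 1 and 3, 1 of 5 and 2 of 19 were higher (2.51% and 0.395%).

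Among regulators of entry and exit, 6 of 8, 5 of 7 and 8 of 9 were past 2-fold in epithelium. *Cdk1*, the kinase that drives entry (chr10:69335146-69352912), stood at 164, 118 and 121 CPM in mitotic and 4.16, 6.81 and 2.94 CPM in non-mitotic epithelial cells, which gives log2 values of 5.30 (4.23 to 6.63), 4.12 (3.497 to 4.765) and 5.36 (4.83 to 5.94). It was found in 21 of 24, 40 of 58 and 116 of 147 mitotic cells against 4 of 54, 30 of 993 and 25 of 2101 non-mitotic ones. *Cdk1* was named for the largest smallest ratio over sets, so the distance between the groups follows from that choice. Its level in mitotic cells was much the same in sets 2 and 3. *Cdca3*, which triggers degradation of the WEE1 inhibitor of entry, stood at 97.1, 40.8 and 75.7 CPM against 1.19, 3.07 and 1.84 CPM.

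Of kinetochore and checkpoint genes, 13 of 19, 5 of 12 and 14 of 20 were past 2-fold in epithelium. *Cdca8*, the borealin subunit of the chromosomal passenger complex (chr4:124918465-124936917), stood at 128, 86.2 and 78.0 CPM against 5.95, 6.81 and 1.38 CPM, log2 ratios of 4.42, 3.66 and 5.82. *Knstrn*, a kinetochore-localized spindle protein, stood at 37.8, 16.6 and 18.4 CPM against 1.78, 3.07 and 1.38 CPM. Some members of the list were not higher. *Zwint*, a kinetochore scaffold protein, was at 98.6, 157 and 103 CPM in mitotic and 167, 152 and 126 CPM in non-mitotic epithelial cells, a log2 ratio of -0.76 (-1.07 to -0.46), 0.05 (-0.26 to 0.35) and -0.30 (-0.51 to -0.09). *Cenpb*, which binds centromeric DNA, had ratios of -0.31, 0.12 and -0.07, and *Cenpc1*, of the inner kinetochore, -0.68, 0.36 and 0.54, and the 95% intervals of both genes hold 0 in every set.

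Of spindle and motor genes, 16 of 18, 7 of 10 and 12 of 15 were past 2-fold in epithelium. *Tacc3*, which crosslinks spindle microtubules, stood at 85.2, 43.8 and 39.9 CPM against 6.54, 2.42 and 1.29 CPM. *Ckap2* stood at 20.8, 22.7 and 24.8 CPM against 2.38, 2.42 and 3.03 CPM, and its paralogue *Ckap2l* at 35.6, 25.7 and 29.8 CPM against 2.38, 4.17 and 1.29 CPM. *Plk1*, named here only because its promoter is printed above, had few transcripts, 28.2, 10.6 and 7.34 CPM in mitotic epithelial cells against 0, 3 and 3 UMIs in non-mitotic ones. *Tubb4b*, a tubulin made in most cells, was nearly level, at 718, 788 and 893 CPM against 621, 693 and 761 CPM, log2 0.21, 0.18 and 0.23. *Haus8*, of the augmin complex, had log2 ratios of 0.25, 0.35 and 0.47 with intervals across 0.

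Of chromosome structure genes, 10 of 13, 6 of 10 and 9 of 13 were past 2-fold in epithelium, and of cytokinesis genes 4 of 4, 3 of 3 and 6 of 6. *Mki67* (chr7:135689784-135716450) stood at 94.9, 75.6 and 96.8 CPM in mitotic epithelial cells and 0.595, 5.27 and 2.11 CPM in non-mitotic ones. It was found in 21 of 24, 33 of 58 and 91 of 147 mitotic cells against 1 of 54, 21 of 993 and 21 of 2101 others, which is the background for such a share, at the median depths given above. The condensin subunits *Smc2* and *Smc4* and the condensin I subunit *Ncapd2* were all higher. *Smc2* stood at 165, 99.8 and 114 CPM against 14.3, 14.5 and 8.63 CPM, *Smc4* at 162, 126 and 152 CPM against 32.7, 26.1 and 26.4 CPM, and *Ncapd2* at 34.8, 27.2 and 17.4 CPM against 2.38, 3.29 and 1.01 CPM. *Shcbp1*, a midbody protein, stood at 50.4, 37.8 and 31.7 CPM against 0.595, 3.95 and 0.827 CPM.

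Most genes of the mitosis lists were also higher in mitotic stromal cells. Of the mitosis lists, 65 of 74, 37 of 48 and 41 of 44 genes counted were at least 2-fold higher than in non-mitotic stromal cells and none were 2-fold lower, where 7.39%, 9.5% and 14.6% of all genes were higher and 4.29%, 3.04% and 3.24% lower. With the floor of 3 UMIs set on either group, 1183 of 5821 and 2197 of 6113 of all genes were higher in sets 2 and 3, in place of 553 and 892, while 38 of 48 and 41 of 44 mitosis genes were. The shares over all genes in stroma thus depend on the floor, which was settled after values were seen. The median log2 ratio was 3.71, 2.84 and 3.73, against -0.06, 0.02 and 0.12 over all genes. By role, 18 of 23, 12 of 16 and 11 of 14 kinetochore genes, 21 of 21, 9 of 11 and 12 of 12 spindle genes, 10 of 13, 9 of 11 and 11 of 11 chromosome structure genes, 6 of 6, 3 of 3 and 1 of 1 cytokinesis genes, and 10 of 11, 4 of 7 and 6 of 6 regulators were past 2-fold. Against non-mitotic stromal cells of like depth 65 of 74, 30 of 39 and 31 of 34 were higher, beside 7.64%, 7.42% and 13.9% of all genes. Without cells carrying markers of other cell types 65 of 71, 36 of 44 and 33 of 37 were, beside 6.06%, 9.79% and 14.5%. Thinned to 900 UMIs, with 9, 6 and 6 mitotic cells left, 11 of 14, 7 of 27 and 8 of 25 were, beside 8%, 1.9% and 2.05%. There most were not higher in sets 2 and 3.

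*Cdca8* stood at 146, 176 and 238 CPM in mitotic stromal cells against 2.07, 4.58 and 1.10 CPM in non-mitotic ones, log2 6.14 (5.15 to 7.36), 5.27 (4.54 to 6.03) and 7.76 (6.66 to 9.06). *Mki67* stood at 136, 228 and 370 CPM against 2.84, 6.34 and 2.33 CPM and was found in 103 of 121, 30 of 57 and 28 of 45 mitotic cells against 9 of 244, 31 of 3061 and 17 of 4184 others. *Cdk1* stood at 279, 216 and 270 CPM against 13.95, 8.804 and 4.53 CPM. All 3 genes were named for the largest smallest ratio over sets, so their separation between the groups in every set follows from that choice. The outer kinetochore genes *Casc5* (the KNL1 scaffold) and *Spc25* (of the NDC80 complex) stood at 44.4, 64.1 and 101 CPM against 1.29, 1.94 and 0.961 CPM, and at 70.6, 52.1 and 175 CPM against 2.07, 2.11 and 0.824 CPM. *Mad2l1*, the checkpoint protein that holds CDC20 inactive, stood at 50.8, 56.1 and 84.6 CPM against 3.36, 4.75 and 5.76 CPM, and *Kif22*, a chromosome-binding kinesin, at 65.5, 40.1 and 31.7 CPM against 1.03, 4.05 and 2.06 CPM. *Zwint* was near level in stroma, at 153, 172 and 95.2 CPM against 155, 213 and 120 CPM with all 3 intervals across 0. *Tubb4b*, near level in the epithelium, had stromal ratios of 1.29 (1.19 to 1.40), 0.47 (0.27 to 0.65) and 1.34 (1.17 to 1.51).

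**Figure D3:**
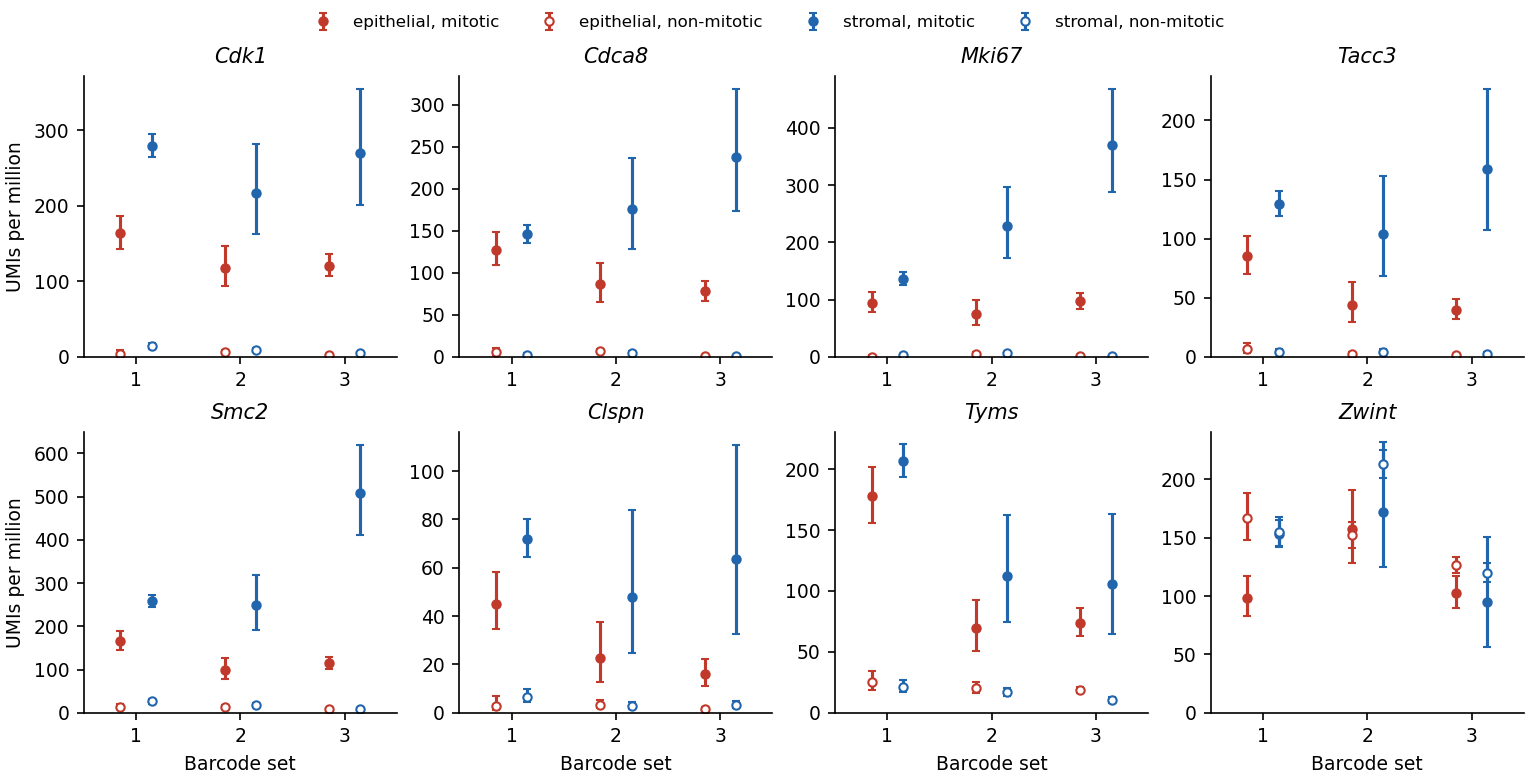
Levels (CPM) of 8 genes in mitotic (filled) and non-mitotic (open) cells of epithelial and stromal kind in barcode sets 1 to 3, with exact 95% Poisson intervals. Cdk1, Cdca8, Mki67, Tacc3, Smc2, Clspn and Tyms are higher in mitotic cells of both kinds in all sets, while Zwint is not. The genes were named by their ratios, so these directions follow from the choice.

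Set directly against each other, mitotic epithelial cells had lower CPM of mitosis genes than mitotic stromal cells. In sets 1, 2 and 3, 13 of 74, 20 of 39 and 45 of 61 mitosis genes were at least 2-fold lower in the epithelium, where 21%, 13% and 17% of all genes were, and none were 2-fold higher, where 10.8%, 11.1% and 7.05% were. The share in set 1 is near that of all genes, and those of sets 2 and 3 are above it. The median log2 ratio of epithelium over stroma was -0.57, -1.02 and -1.51, against -0.09, -0.07 and -0.07 over all genes. *Mki67* gave -0.52 (-0.81 to -0.25), -1.60 (-2.17 to -1.02) and -1.94 (-2.33 to -1.52), *Smc2* gave -0.65, -1.32 and -2.15, and *Cdk1* -0.77, -0.88 and -1.16. In counts per cell the order was the other way. A mitotic epithelial cell held a mean of 450, 79.8 and 118 UMIs of the mitosis lists and a mitotic stromal cell 429, 65.8 and 86.2. The epithelial cells held more UMIs in all, so a lower CPM goes with as many or more captured mitotic transcripts per cell. The rule asks for a number of genes found, so a shallow cell needs a higher CPM to pass, and how far that sets the difference was not tested.

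**Figure D4:**
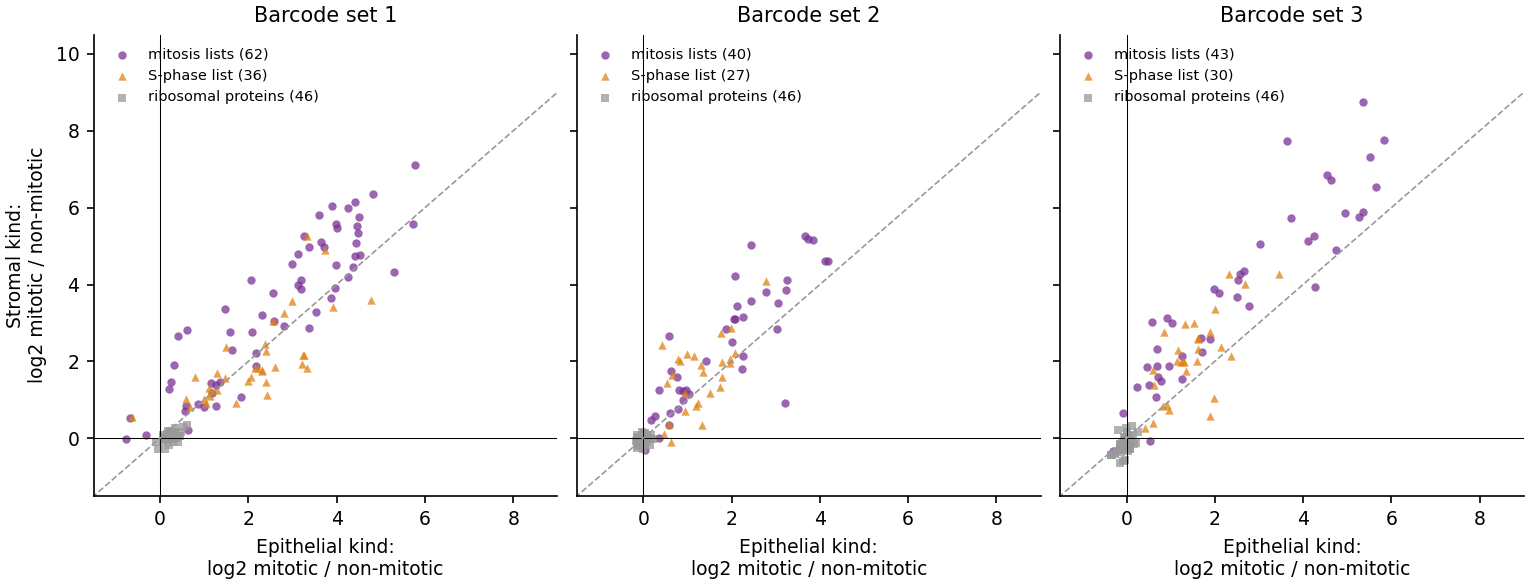
Log2 ratio of mitotic over non-mitotic cells in the epithelium (x) and in the stroma (y) for genes with at least 20 UMIs in both comparisons, barcode sets 1 to 3; the number of genes drawn stands in each legend and the dashed line marks equal ratios. Most mitosis genes and, less far, most S-phase genes lie at positive values in both kinds, and the 46 ribosomal protein genes cluster near 0.

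Genes of DNA replication were also higher in mitotic cells of both kinds. Of the S-phase list, 31 of 36, 17 of 28 and 26 of 36 genes were past 2-fold in epithelium and 37 of 41, 22 of 29 and 22 of 30 in stroma, with none 2-fold lower. Past 2-fold higher were 9.14%, 4.69% and 5.13% of all genes in epithelium and 7.39%, 9.5% and 14.6% in stroma. The median log2 ratio was 2.26, 1.27 and 1.56 in epithelium and 1.78, 1.90 and 2.02 in stroma, below that of the mitosis lists in every set and kind. Of 28 genes counted in every set, 15 were past 2-fold in all sets in epithelium and 18 of 28 in stroma. *Clspn*, an adaptor of the replication checkpoint, stood at 45.2, 22.7 and 16.1 CPM against 2.97, 3.29 and 1.47 CPM in epithelium and at 71.9, 48.1 and 63.5 CPM against 6.72, 2.82 and 3.29 CPM in stroma. *Tyms*, thymidylate synthase, stood at 178, 69.5 and 73.9 CPM against 25.6, 20.4 and 18.4 CPM in epithelium and at 207, 112 and 106 CPM against 21.4, 16.9 and 10.3 CPM in stroma. *Rrm1*, the large subunit of ribonucleotide reductase, had log2 ratios of 2.38, 1.98 and 2.37 in epithelium and 2.44, 2.87 and 2.13 in stroma, and *Mcm5*, of the replicative helicase, 3.22, 1.78 and 2.13 and 1.94, 1.97 and 2.36. *Pcna*, the replication clamp, had ratios of 0.79, 0.95 and 0.61 in epithelium and of 1.60, 1.18 and 1.38 in stroma. *Nasp*, a histone chaperone, was near level in sets 2 and 3, at 0.47 and 0.10 in epithelium and 0.12 and 0.08 in stroma. Between the kinds, 6 of 41, 3 of 21 and 9 of 31 S-phase genes were 2-fold lower in mitotic epithelial than stromal cells, beside 21%, 13% and 17% of all genes, so in sets 1 and 2 the share was near or below that of all genes.

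Of the cyclins, kinases and E2F factors of G1, 1 of 7, 1 of 6 and 6 of 10 were past 2-fold higher in epithelium and 6 of 11, 4 of 9 and 5 of 8 in stroma. The shares of all genes higher were 9.14%, 4.69% and 5.13% in epithelium, near which 1 of 7 in set 1 lies, and 7.39%, 9.5% and 14.6% in stroma. Cyclin D1 (*Ccnd1*) had log2 ratios of 0.86, 0.35 and 0.26 in epithelium and 0.54, 0.68 and 1.70 in stroma. Cyclin D2 (*Ccnd2*) went the other way in stroma, at 254, 429 and 185 CPM in mitotic against 539, 513 and 369 CPM in non-mitotic cells, log2 -1.09 (-1.19 to -0.98), -0.26 (-0.55 to 0.02) and -0.996 (-1.52 to -0.52), and in epithelium its ratios were 0.54, -0.24 and -1.02. The interval of set 2 in stroma holds 0.

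Of the inhibitors of the cycle, 2 of 12, 2 of 9 and 2 of 10 were past 2-fold higher in stroma, beside 7.39%, 9.5% and 14.6% of all genes, and *Cdkn2c* and *Rbl1* were so in every set. *Cdkn2c*, the INK4 inhibitor p18, stood at 21.98, 44.1 and 196 CPM in mitotic against 2.58, 8.45 and 14.8 CPM in non-mitotic stromal cells, log2 3.09 (2.15 to 4.19), 2.38 (1.29 to 3.35) and 3.72 (3.14 to 4.27). In mitotic epithelial cells it had 1 UMI in set 1 and 4 in set 2, and in set 3 it stood at 12.4 CPM against 1.47 CPM. *Rbl1*, the pocket protein p107, had stromal ratios of 2.02, 3.09 and 3.27, the last 2 resting on 6 and 4 UMIs in mitotic cells. *Cdkn1c*, the inhibitor p57, was lower in mitotic epithelial cells, at 291, 86.2 and 24.3 CPM against 456, 139 and 53.7 CPM, log2 -0.65 (-0.83 to -0.47), -0.69 (-1.11 to -0.30) and -1.14 (-1.58 to -0.74). In stroma its ratios were -0.16, 0.02 and -0.10. *Btg1*, an antiproliferative factor, was lower in both kinds, by less than 2-fold, at -0.80, -0.23 and -0.18 in epithelium and -0.66, -0.53 and -0.42 in stroma.

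Groups outside the cycle served as a reference for scale. Of 46 ribosomal protein genes none passed 2-fold in either direction in any set or kind, and their median log2 ratio lay between -0.18 and 0.25. Of 12 immediate early and stress genes none was past 2-fold higher, and 4, 0 and 0 were lower in epithelium, beside 8.93%, 2.4% and 3.79% of all genes, and 0, 0 and 2 in stroma, beside 4.29%, 3.04% and 3.24%. *Jun* had ratios of 0.01, 0.12 and -0.04 in epithelium and -0.34, 0.15 and -0.33 in stroma.

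The 23 epithelial markers summed to 5952, 4935 and 4807 CPM in mitotic epithelial cells against 10173, 6287 and 6835 CPM in non-mitotic ones. Much of that difference in sets 2 and 3 was in *Sfn*, and without it the sums were 4859, 3052 and 3260 CPM against 8147, 3257 and 3621 CPM. The median log2 ratio of the markers was -0.40, -0.08 and -0.10, so in sets 2 and 3 the markers as a list were near level. Of those counted, 2 of 22, 0 of 21 and 1 of 22 were past 2-fold higher and 6 of 22, 2 of 21 and 5 of 22 lower. Of all genes 9.14%, 4.69% and 5.13% were higher and 8.93%, 2.4% and 3.79% lower, so the share of markers that were lower was above that of all genes in each set. *Sfn*, the epithelial 14-3-3 protein sigma, stood at 1093, 1883 and 1547 CPM against 2026, 3030 and 3214 CPM, lower in each set. Some genes changed direction between sets. *Cldn3*, a tight junction claudin, was lower in set 1 (-1.52) and higher in sets 2 and 3 (0.32 and 0.35), and *Ehf*, an epithelial transcription factor, went the same way (-0.34, 0.53 and 0.34). *Shh*, the ligand of urogenital budding, stood at 125 against 72.0 CPM in set 1, at 19.7 against 36.2 CPM in set 2 and at 4.13 against 17.2 CPM in set 3. *Pdpn*, a membrane glycoprotein, had ratios of 1.64 (1.01 to 2.30), -0.69 (-1.25 to -0.18) and -1.56 (-1.86 to -1.28), and *Lamb3*, a laminin chain of hemidesmosomal basement membrane, 0.74, -1.23 and -1.47. *Cldn3*, *Ehf*, *Shh*, *Pdpn* and *Lamb3* were named after their values were seen. As a description of the genes that assigned the epithelial kind, *Cldn4* had ratios of -0.81, -0.55 and -0.45 and *Cdh1* -0.95, -0.13 and 0.03. *Wnt4* had ratios of -1.42 (-1.59 to -1.25), -0.34 (-0.74 to 0.04) and -0.66 (-0.99 to -0.34), and *Areg*, an EGF receptor ligand, -2.03, -0.64 and -0.55.

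Fibroblast markers had a lower summed level in mitotic stromal cells. The 20 fibroblast markers summed to 8535, 5382 and 6285 CPM against 11212, 8280 and 9617 CPM, and their median log2 ratio was -0.38, -0.75 and -0.49, though only 0 of 20, 5 of 20 and 4 of 20 passed 2-fold lower, beside 4.29%, 3.04% and 3.24% of all genes. In set 1, 2 of 20 were past 2-fold higher, the collagen gene *Col15a1* at 1.15 (0.82 to 1.48) and the matrix gene *Dpt* at 1.10 (0.57 to 1.65), both named after their values were seen, and none were in sets 2 and 3. Of all genes 7.39% were higher in set 1, near the share of these markers. The proteoglycan gene *Dcn* stood at 2134, 1571 and 2079 CPM against 3337, 2661 and 4113 CPM, log2 -0.65 (-0.68 to -0.61), -0.76 (-0.91 to -0.62) and -0.98 (-1.13 to -0.84). *Col1a2* and *Col3a1*, which the rule used to assign the stromal kind, are given as a description only and had ratios of -0.60, -0.90 and -0.66 and of -0.77, -1.19 and -0.57. Against non-mitotic cells of like depth *Dcn* gave -0.98, -0.66 and -0.45, and without cells carrying markers of other types -0.70, -0.92 and -0.92. Smooth muscle markers summed to 1874, 12230.0 and 6232 CPM against 1772, 13948 and 12097 CPM, with 0 of 8, 0 of 8 and 4 of 8 past 2-fold lower.

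*Igf1*, the insulin-like growth factor the study follows, was also lower in mitotic stromal cells. It stood at 135, 52.1 and 132 CPM in mitotic and 280, 97.4 and 275 CPM in non-mitotic cells, log2 -1.05 (-1.20 to -0.91), -0.90 (-1.82 to -0.12) and -1.06 (-1.69 to -0.49). It was chosen after its values were seen, and the 2 groups are apart in all sets, with set 2 resting on 13 UMIs in mitotic cells. Against cells of like depth it gave -0.87, -0.66 and -0.72, and among cells with no UMI of the other kind's genes -0.998, -0.53 and -0.66. Neither choice leaves out cells with markers of other types. In set 1 at least 2 endothelial markers were found in 32 of 121 mitotic against 22 of 244 non-mitotic stromal cells. The receptor gene *Igf1r* did not differ beyond counting error, at -0.16, -0.14 and -0.07. *Igfbp5*, an IGF-binding protein, had ratios of -1.37, -0.37 and -0.55. *Rspo3*, a WNT enhancer, stood at 90.6, 92.2 and 127 CPM against 169, 162 and 158 CPM. Of 10 IGF axis genes with a row, those past 2-fold lower numbered 2 of 10, 0 of 10 and 2 of 9, with none higher. Of the WNT list 3 of 14, 3 of 13 and 0 of 13 were lower and 1, 1 and 0 higher. Of all genes 4.29%, 3.04% and 3.24% were lower and 7.39%, 9.5% and 14.6% higher, so these counts of few genes are no result about the lists.

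**Figure D5:**
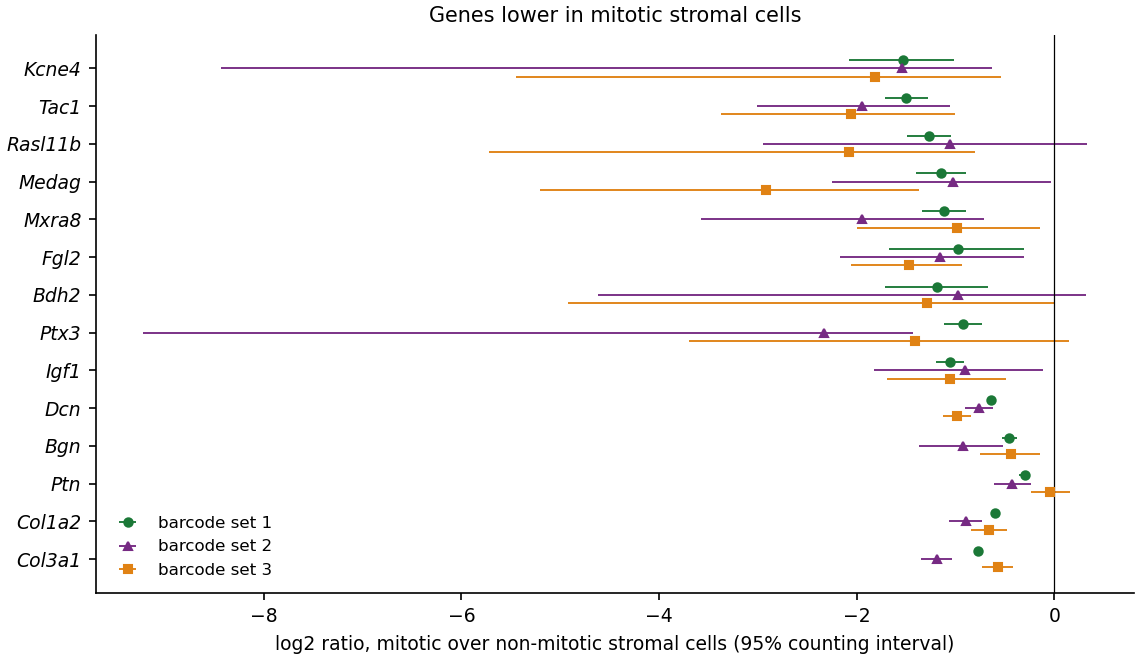
Log2 ratio of mitotic over non-mitotic stromal cells for 14 genes, with exact 95% counting intervals, barcode sets 1 to 3 in different symbols. Points with 0 to 2 UMIs in mitotic cells are drawn at the floor of 3 UMIs. All 14 genes lie at or below 0 in all sets (Col1a2 and Col3a1 assigned the kind and are shown as a description), with the widest intervals for Kcne4 and Ptx3 in set 2, where mitotic cells held 1 UMI. Genes named as the lowest outside the lists, such as Kcne4 and Ptx3, were chosen for the same direction in every set. Their place below 0 follows from that choice.

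Over all genes outside the lists, 8 were named for the largest smallest ratio in mitotic epithelial cells. *Sgol2a*, shugoshin 2, the protector of centromeric cohesin, stood at 20.01, 22.7 and 12.4 CPM against 0 UMIs, 1.76 and 0.735 CPM, a log2 ratio of 3.49 with the 0 set to 3 UMIs in set 1, and of 3.69 and 4.08 in sets 2 and 3. *Dbf4*, the activating subunit of the CDC7 replication kinase, had ratios of 2.05, 1.92 and 1.61, *Haus6*, of the augmin complex, 1.49, 2.50 and 1.91, and *Mms22l*, of a replication repair complex, 1.70, 2.41 and 2.56. The others were *Ccdc34*, *Ndc1*, *Apitd1* and *2700094K13Rik*. Among the lowest were *Rgs16*, *Apoe*, *Ggct*, *Dennd2c*, *Ereg*, *Hmox1* and *Cd164l2*, of which *Rgs16* turned to 0.10 in set 1 without cells carrying markers of other types. *Apoe*, the apolipoprotein, stood at 5.19, 165 and 425 CPM against 53.5, 347 and 1397 CPM, and *Ereg*, an EGF receptor ligand, at 10.4, 7.56 and 5.51 CPM against 112, 27.2 and 10.9 CPM. *Hmox1*, heme oxygenase 1, stood at 57.1, 154 and 120 CPM against 129, 331 and 232 CPM, and its ratio in set 1 turned to 0.27 when cells with at least 3 of the rule genes were taken.

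In mitotic stromal cells the highest outside the lists were *Arl6ip1*, *Gas2l3*, *Dbf4*, *Siah1b*, *Hirip3*, *Ccdc34*, *2700094K13Rik* and *Cdk5rap2*. *Arl6ip1*, which shapes endoplasmic reticulum tubules, stood at 281, 273 and 587 CPM against 63.8, 55.1 and 103 CPM, log2 2.14 (1.94 to 2.34), 2.31 (1.91 to 2.69) and 2.52 (2.22 to 2.81). *Cdk5rap2*, a centrosome protein that anchors gamma-tubulin, had ratios of 1.55, 3.25 and 3.48, and *Gas2l3*, a cytoskeletal linker of the midbody, 2.29, 2.06 and 2.63. *Dbf4*, *Ccdc34* and *2700094K13Rik* were named for both kinds. The 8 lowest were *Kcne4*, *Tac1*, *Rasl11b*, *Medag*, *Mxra8*, *Fgl2*, *Bdh2* and *Ptx3*, of which *Ptx3* turned to 0.48 in set 3 with at least 3 rule genes and *Rasl11b* to 0.15 in set 2 with at least 5. *Tac1*, the precursor of substance P, stood at 54.3, 40.1 and 37.0 CPM against 154 CPM in each of the 3 sets, log2 -1.499 (-1.72 to -1.28), -1.94 (-3.01 to -1.06) and -2.06 (-3.37 to -1.01). *Mxra8*, an adhesion protein of the matrix, had ratios of -1.12, -1.95 and -0.99. *Kcne4*, a potassium channel subunit, stood at 43, 1 and 2 UMIs in mitotic against 106, 199 and 407 UMIs in non-mitotic cells, so its ratios of sets 2 and 3 rest on the interval (-8.44 to -0.63 and -5.45 to -0.54).

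The stromal kind also held cells of other types, and their share moved with the groups. At least 2 endothelial markers were found in 32 of 121, 3 of 57 and 0 of 45 mitotic stromal cells against 22 of 244, 47 of 3061 and 55 of 4184 non-mitotic ones. The 11 endothelial markers summed to 637, 441 and 47.6 CPM against 242, 147 and 155 CPM, and 8 of the 11 were at 0 in mitotic cells of set 3. Glial markers summed to 541, 96.2 and 143 CPM against 196, 240 and 272 CPM, pericyte markers to 158, 56.1 and 349 CPM against 97.9, 49.3 and 110 CPM, and leukocyte markers to 297, 100 and 84.6 CPM against 39.8, 18.7 and 80.4 CPM. Stromal ratios of *Coro1a*, a leukocyte actin regulator, and *Rgs5*, a pericyte marker, were past 2-fold in every set. Without cells carrying such markers, a choice that uses both genes themselves, *Coro1a* turned to -0.63 in set 1 and *Rgs5* to -1.38 in set 1 and -0.71 in set 3. In set 2 the red cell gene *Hbb-bs* stood at 1539 CPM in mitotic against 42.3 CPM in non-mitotic stromal cells, with at least 2 erythroid markers in 1 of 57 mitotic cells. Its log2 ratio there was 5.19, and it turned to -1.41 without cells carrying other markers and to -1.25 without cells of mixed kind. Epithelial markers summed to 312, 1431 and 1333 CPM in mitotic against 244, 1114 and 834 CPM in non-mitotic stromal cells. Among them *Sox2* and *Fxyd3* were past 2-fold higher in every set. *Sox2* rests on 3 and 4 UMIs in mitotic cells of sets 2 and 3. *Fxyd3* turned to -0.79 in set 1 without cells of mixed kind. In mitotic epithelial cells endothelial markers summed to 18.53, 18.1 and 57.8 CPM against 222, 51.8 and 61.3 CPM and leukocyte markers to 2.97, 15.1 and 312 CPM against 126, 143 and 144 CPM. The part of these cells in the ratios of single genes was not tested beyond leaving out cells with such markers.

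*EGFP* transcripts were found in set 1 only among these groups. They stood at 1039 CPM over all 121 mitotic and 1049 CPM over all 244 non-mitotic stromal cells, with a UMI in 86 and 117 of them, and these levels have overlapping intervals (1009 to 1069 and 1017 to 1082). In epithelium they stood at 31.1 and 39.9 CPM. In sets 2 and 3 no *EGFP* UMI was found in any of these groups.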

How the data were processed

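Single-cell RNA sequencing libraries of E18.5 male UGS, P14 prostate and P35 prostate, 1 each, were analysed. The deposited values are on a natural log scale: per the submitters' notes reads were processed with Cell Ranger 3.1.0, and the values equal the natural log of 1 plus 10000 times a cell's UMIs of a gene over its total. All 11120281 values above 0 gave whole UMIs within 0.05, so UMIs and cell totals were recovered from them. The cell cycle regression and the integration that the study describes are not part of these values. Of 9784 rows, 1 was left out as partly empty and 2 for shared names. Cells with at least 200 genes were kept.

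UMIs were summed per barcode set, kind and class, and given per 1000000 UMIs. Intervals are exact, Poisson for these levels, Clopper-Pearson for shares and binomial for ratios. These cover counting error only, and with 1 library per tissue no test was made. Genes with at least 20 UMIs over both groups were compared. Setting sums of 0 to 2 UMIs to 3 only in the group with the lower rate was settled after values were seen. No doublet caller was run, as the methods describe a quality filter against multiplets, and cells with UMIs of both kinds were left out in an alternative. Of the kept cells, 14 barcodes occur under more than 1 ending. Free RNA can give UMIs in cells that do not express a gene.

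The members and gene lists were chosen with earlier results of these data known. Named genes were the rule genes, list members with the largest smallest ratio over sets, those nearest or below 0, list members past 2-fold in every set or with most UMIs, and, outside the lists, the 8 highest and 8 lowest per kind by the ratio nearest 0. Results of a few genes that these rules name are not reported here. Promoter windows of 250 bases before and 50 after the start came from RefSeq (GRCm38.p6). Python 3.11.15, numpy 2.4.6, scipy 1.17.1, pandas 2.3.3 and matplotlib 3.10.9 were used, and the scripts were tested on simulated data.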

Additional observations from a re-analysis of the deposited data

Results flagged for a closer look

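Mitotic cells of neither kind, which the comparisons do not use, numbered 11, 2 and 8 in sets 1 to 3. At least 2 endothelial markers were found in 5 of 11, 0 of 2 and 2 of 8 of them, leukocyte markers in 4 of 11, 1 of 2 and 0 of 8, epithelial markers in 3 of 11, 2 of 2 and 5 of 8, fibroblast markers in 5 of 11, 2 of 2 and 6 of 8, and smooth muscle markers in 5 of 11, 2 of 2 and 4 of 8.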

How the results depend on the processing

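No paired analysis was possible because each tissue had 1 library, and for the same reason no replicate could be left out. Of 48 alternative values of the shares 27 stayed within the interval of the value reported and 21 did not, of 47 of the UMI ratio 39 stayed, 4 moved and 4 changed sign, of 77 list counts 59 stayed within 1.5 times and 18 did not, and of 4364 values of named genes 4022 stayed, 323 moved and 19 changed sign. Thinning to 3000 UMIs, the marker sum without *Sfn*, like-depth cells for single genes, calls with intervals clear of 0 and the floor on either group were chosen after seeing the data. With at least 3 genes in the rule the share was 7.65% and 7.47% in epithelium and 3.01% and 1.46% in stroma of sets 2 and 3, and with at least 5 it was 2.45% and 3.73% in epithelium and 0.636% in stroma of set 2. Without cells of mixed kind it was 2.67% in epithelium of set 2, and without cells carrying other markers 16.8% in stroma of set 1. Thinned to 900 UMIs it was 0.885%, 0% and 0.106% in epithelium and 2.01%, 0.197% and 0.165% in stroma, and thinned to 3000 UMIs 4.32%, 1.1% and 1.41% and 7.79%, 2.26% and 5.57%. The log2 ratio of UMIs per cell became -0.37 and 1.31 in epithelium of sets 1 and 3 and 0.53 in stroma of set 1 at 900 UMIs, and -0.53, 0.09 and 0.07 in epithelium and -0.12 and -0.02 in stroma of sets 2 and 3 at 3000. The mitosis genes past 2-fold numbered 1 of 5 and 2 of 19 in epithelium of sets 1 and 3 (2.51% and 0.395% of all genes counted) and 11 of 14, 7 of 27 and 8 of 25 in stroma (8%, 1.9% and 2.05%) at 900 UMIs, with no mitotic epithelial cell left in set 2. At 3000 they numbered 11 of 14, 7 of 24 and 20 of 30 in epithelium (13.1%, 5.77% and 9.72%) and 23 of 26, 16 of 20 and 21 of 22 in stroma (7.36%, 9.46% and 15.2%). With at least 50 UMIs they numbered 30 of 39, 11 of 25 and 26 of 40 in epithelium (6.42%, 2.13% and 3.1%) and 20 of 28 and 26 of 29 in stroma of sets 2 and 3 (6.49% and 14.5%), and with at least 1 UMI 53 of 74 in epithelium of set 2 (5.74%) and 62 of 74 in stroma of set 3 (10.8%).

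Ratios of named genes that changed sign were, with at least 3 genes, *Hmox1* in epithelium of set 1 (0.27) and *Ptx3* in stroma of set 3 (0.48), and with at least 5, *Rasl11b* in stroma of set 2 (0.15). Without cells of mixed kind they were *Sfrp2* in epithelium of set 1 (0.80), *Fxyd3* and *Sfn* in stroma of set 1 (-0.79 and -0.95) and *Hbb-bs* in stroma of set 2 (-1.25). Without cells carrying other markers they were *Myl9*, *Egfl7*, *Gpm6b* and *Rgs16* in epithelium of set 1 (1.10, 1.43, 1.43 and 0.10), *Coro1a* and *Rgs5* in stroma of set 1 (-0.63 and -1.38), *Hbb-bs* in stroma of set 2 (-1.41), and *Rgs5* in stroma of set 3 (-0.71). Against cells of like depth they were *Egfl7* in epithelium of set 1 (1.59) and *Fabp7* in stroma of set 2 (0.21). As differences of mean deposited values they were *Gpm6b* in epithelium of set 1 (0.000526) and *Hbb-bs* in stroma of set 3 (0.0284). The cause was not tested. Small groups of mitotic cells, 24 to 147, and few UMIs per cell in sets 2 and 3 limit low genes most.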
